A study of Pimephales promelas with 20 samples.

Results

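The entries described here are 52 microRNA (miRNA) identifiers of the fathead minnow (Pimephales promelas) that were counted on both strands of their reference sequence. They are all identifiers with a row in the forward table and a row in the reverse table of the miRNA read counts. The 2 tables together hold 533 identifiers, of which 476 had only a forward row and 5 only a reverse row. No read level was used to choose the 52 beyond the presence of both rows, and the forward and reverse tables hold no row with fewer than 100 and 135 reads over all libraries. F and R in the names of the tables were taken to mean the forward and reverse strand, which no label states. Each identifier is a common prefix followed by a number (novelMiR_6613, for example). The sources used here pair none of them with a named miRNA family, a sequence or a genome position, so none is given.

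The libraries were small RNA libraries of whole larvae in 2 groups. In the first, larvae were exposed to 10 ng/L ethinylestradiol (EE2), a synthetic estrogen, without renewal of the water for 48 h, between 48 and 96 h after hatching. The control larvae were kept over the same time at 0 ng/L. These times combine the labels' treatment and source entries, and another entry gives the stage as 48 h. Each group had 10 libraries. The labels give no strain or genotype, and they do not say how many larvae made up a library or whether vessels were separate, so p-values measure only the spread between these libraries, which may be technical.

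A miRNA is a short RNA cut from a hairpin precursor and loaded into an Argonaute protein, where it represses messenger RNAs that pair with it. The hairpin has 2 arms that pair with each other, and each arm can give a short RNA. The reverse strand of a reference sequence can therefore resemble the opposite arm, or match the same locus transcribed from the other DNA strand. In Drosophila, the locus of mir-iab-4 is transcribed in both directions and each transcript gives its own miRNA. The reverse share, the reverse reads divided by all reads of an identifier in a library, states how its reads divide between the strands and does not depend on library size.

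Forward totals were 10.0 to 24.1 M reads in the EE2 libraries and 8.72 to 18.99 M in the control libraries, and reverse totals were 84306 to 211513 reads in the EE2 libraries and 65152 to 150992 in the control libraries. The 52 identifiers held 0.569% of all forward reads and 69.6% of all reverse reads, the other 30.4% of reverse reads being on the 5 identifiers with a reverse row only. On the forward strand they were of middling abundance, with a median of 1438.5 reads over the 20 libraries against 1696 for the 476 forward-only identifiers. Of the 100 identifiers with most forward reads 2 were among them, and of the first 20 none (0). No 2 libraries agreed within counting error.

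The strand preference of the 52 ranged from almost pure forward to almost pure reverse. Summed over the 20 libraries, the forward reads of an identifier were 212 to 1152862 and its reverse reads 145 to 1152862, with a median of 492 reverse reads. The reverse share was under 1% for 4 identifiers, from 1% to under 10% for 10, from 10% to under 50% for 19, from 50% to under 90% for 12, and 90% or more for 7. The median was 27.0%, and 19 of the 52 had more reverse than forward reads. The number of forward reads said little about the number of reverse reads: across the 52 identifiers the log10 values had a Pearson r of -0.17, given as a description since identifiers are not replicates.

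**Figure D1:**
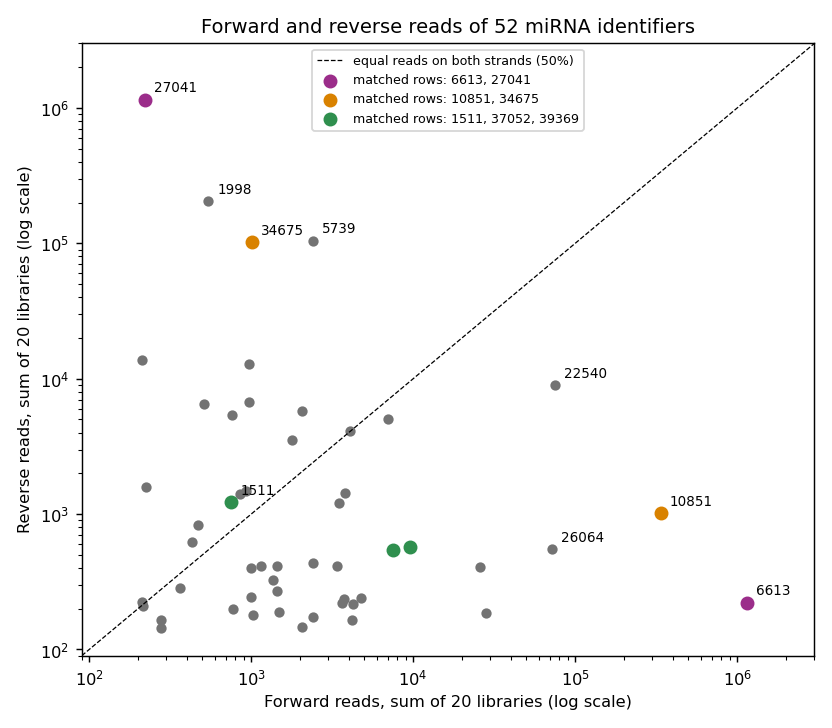
Forward reads (x axis) and reverse reads (y axis) of each of the 52 identifiers, summed over 20 libraries, both on log scales; coloured points are sets of identifiers whose rows match between the strands, and the dashed line marks equal reads. The point of novelMiR_6613 (1152862 forward and 222 reverse reads) and that of novelMiR_27041 (222 forward and 1152862 reverse reads) mirror each other across the line.

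Most reverse reads were on a few identifiers. The 4 with most, novelMiR_27041, novelMiR_1998, novelMiR_5739 and novelMiR_34675, held 65.7% of the reverse table, and the first 10 held 68.0%. novelMiR_27041 had 40190 to 104743 reverse reads in EE2 libraries (median 58987) and 29822 to 82782 in control libraries (median 57010.5). Its forward row held 3 to 24 reads per EE2 library and 2 to 15 per control library. An identifier read mainly as the reverse of its reference was thus abundant in every library of both groups. This reverse row alone held 48.4% of the reverse table. It equalled the forward row of novelMiR_6613 in 20 of 20 libraries, as described below, so the 2 rows are not separate values.

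novelMiR_1998 had 7129 to 14182 reverse reads in EE2 libraries (median 10212.5) and 5277 to 12351 in control libraries (median 9741). Its forward reads were 14 to 54 per EE2 library and 12 to 35 per control library. novelMiR_5739 had 3561 to 10194 reverse reads with EE2 (median 4873.5) and 3002 to 6714 in controls (median 5027.5). For both, reverse reads exceeded forward reads in each of the 20 libraries.

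novelMiR_34675 had 3718 to 9465 reverse reads in EE2 libraries (median 5007) and 2988 to 7261 in control libraries (median 4563). The next in order, novelMiR_24127, had 405 to 1109 reverse reads with EE2 (median 632) and 360 to 1030 in controls (median 715). Behind it came novelMiR_38953 with 12854 reverse reads over all libraries, novelMiR_22540 with 9009, novelMiR_14047 with 6758, novelMiR_27042 with 6542 and novelMiR_25078 with 5731. Of these 10, novelMiR_22540 alone was mainly forward, with 74851 forward reads.

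At the other end stood identifiers with abundant forward reads and a trace on the reverse strand. novelMiR_6613 had a mean reverse share of 0.0189%, novelMiR_10851 of 0.321%, novelMiR_24233 of 0.710%, novelMiR_26064 of 0.791% and novelMiR_709 of 1.56%. These are shares over 20 libraries among the 46 identifiers with a mean of at least 50 reads on both strands together, the minimum used for shares. Even the lowest of them had reverse reads in each library: novelMiR_6613 had 3 to 24 with EE2 and 2 to 15 in controls. The highest mean shares were 99.98% for novelMiR_27041, 99.7% for novelMiR_1998, 99.0% for novelMiR_34675, 98.5% for novelMiR_24127 and 97.7% for novelMiR_5739.

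Several identifiers at opposite ends of this scale had the same counts. In 20 of 20 libraries the forward reads of novelMiR_6613 equalled the reverse reads of novelMiR_27041, at 1152862 reads each over all libraries. The forward reads of novelMiR_27041 likewise equalled the reverse reads of novelMiR_6613 in 20 of 20 libraries, at 222 reads each. The shares of the pair therefore add to 100% in each library, and what is said of one identifier is the mirror of what is said of the other. In the forward tables and reverse tables they count as 2 entries, but they carry 1 set of values.

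A second pair matched in one direction. The forward reads of novelMiR_34675 (1011 over all libraries) and the reverse reads of novelMiR_10851 (1012) were equal in 19 of 20 libraries and differed by 1 read in EE2 replicate 1, with 74 and 75 reads. In the opposite direction the rows moved together without being equal. The reverse reads of novelMiR_34675 (102190) were 0.277 to 0.381 of the forward reads of novelMiR_10851 (336981) in the 20 libraries, and their log2 levels had a Pearson r of 0.89. Of 30096 pairs of a forward row and a reverse row, these 3 were equal in 18 or more libraries, and the pair with most equal libraries after them was equal in 5.

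Another set held 3 identifiers whose rows kept a nearly fixed ratio. The reverse reads of novelMiR_37052 (546 over all libraries) were 0.579 to 0.886 of the forward reads of novelMiR_1511 (756). Those of novelMiR_39369 (568) were 0.552 to 0.907 of the same forward reads. The variance of these ratios over libraries was 0.192 and 0.288 of the variance that binomial counting of separate reads gives. Both pairs were picked for low values among 170820 pairs of rows, so these values are partly set by the choice.

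The reverse rows of novelMiR_37052 and novelMiR_39369 also matched each other, with a variance ratio of 0.142. Their forward rows (7495 and 9552 reads) had a ratio of 0.696 to 0.883 and a variance ratio of 1.01, close to that of counting. The reverse reads of novelMiR_1511 (1223) were 0.125 to 0.213 of the forward reads of novelMiR_37052, with a variance ratio of 0.824, and 0.0937 to 0.175 of those of novelMiR_39369, with a variance ratio of 1.17. For the reverse row of novelMiR_1511 these variance ratios are near that of counting, which steady rows can also give, so they do not by themselves show shared variation. Its reverse level had a Pearson r of 0.71 with the forward level of novelMiR_37052. That value is the best of 528 forward rows, so it is partly set by the choice.

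Of 170820 pairs of rows in both tables, 8 had a variance ratio under 0.3, a limit chosen after the values were seen. Of these, 6 were between rows of the 52 identifiers, and 5 of those 6 joined a forward row with a reverse row; the other 2 pairs were between forward rows of identifiers with no reverse row. The next pair of a forward and a reverse row had a variance ratio of 0.497. In all, 7 of the 52 identifiers (novelMiR_6613, novelMiR_27041, novelMiR_10851, novelMiR_34675, novelMiR_1511, novelMiR_37052 and novelMiR_39369) stood in such pairs. Whether matched rows were counted from the same reads was not tested, since sequences and alignments were not used here.

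**Figure D2:**
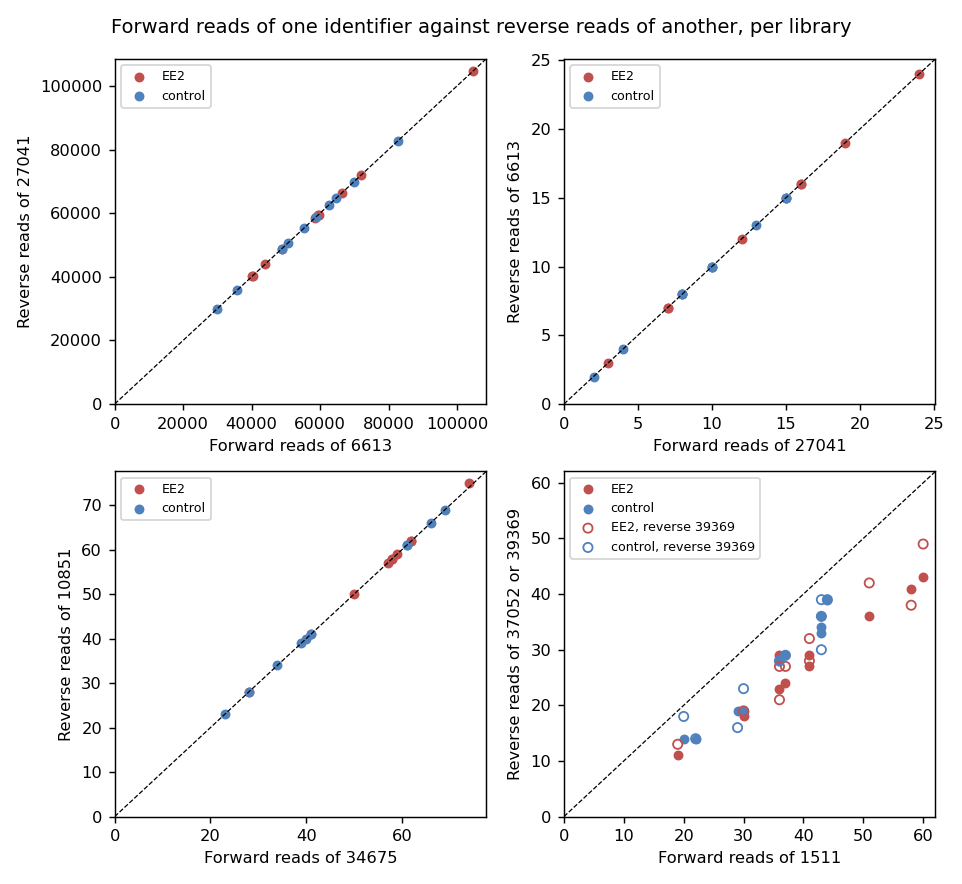
Forward reads of one identifier (x axis) against reverse reads of another (y axis) in 10 EE2 and 10 control libraries, in reads per library; the dashed line marks equal counts. The points of novelMiR_6613 against novelMiR_27041 lie on the line in both directions, those of novelMiR_34675 against novelMiR_10851 leave it by 1 read in EE2 replicate 1, and the reverse reads of novelMiR_37052 and novelMiR_39369 lie below the forward reads of novelMiR_1511 in every library.

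Other reverse rows followed forward rows of another identifier more closely than their own. The reverse level of novelMiR_1998 had a Pearson r of 0.97 over the 20 libraries with the forward level of novelMiR_25564, at 0.246 to 0.330 of its reads, against -0.18 with its own forward level. That of novelMiR_25078 had an r of 0.96 with the forward level of novelMiR_5467, against -0.07 with its own. That of novelMiR_24127 had an r of 0.93 with novelMiR_21992, which it exceeded 2.12 to 3.08 times, against 0.16 with its own. Each of these is the best of 528 forward rows, so a high value is partly set by the choice, and no p is given.

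Among the rest of the 10 identifiers with most reverse reads, the nearest forward row was novelMiR_21068 for novelMiR_38953 (r = 0.89), novelMiR_26885 for novelMiR_5739 (r = 0.84), novelMiR_3490 for novelMiR_22540 (r = 0.76), novelMiR_14321 for novelMiR_27042 (r = 0.73) and novelMiR_37847 for novelMiR_14047 (r = 0.64). For novelMiR_27041 and novelMiR_34675 it was the matched identifier described above. Over all 52, the own forward row was the nearest for 1 identifier, novelMiR_27300, and its median rank among the 528 forward rows was 187. None of the 528 could be compared by sequence here.

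The reverse share kept the same majority strand in most identifiers but was not constant. Among the 46 identifiers, the share crossed 50% between libraries for 9 and did not for 37. Of these 37, novelMiR_25078 (control replicate 8) and novelMiR_27550 (control replicate 5) each had a library at exactly 50%, with no majority strand. The rest of the 37 kept the same majority strand in 20 of 20 libraries. The highest share over libraries was a median of 3.37 times the lowest, leaving out novelMiR_36522, whose lowest share was 0. Over all 46 the median coefficient of variation was 32.9%. The observed variance over libraries was a median of 3.49 times the binomial counting variance (range 1.10 to 43.6). It was over 2 times for 37 of 46 identifiers and under 1.5 times for 6. The mirrored pair novelMiR_6613 and novelMiR_27041 counts as 2 of the 46. The reads carry no molecular identifiers and several may come from 1 molecule, so counting variances and the exact intervals given for single libraries cover counting error only.

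**Figure D3:**
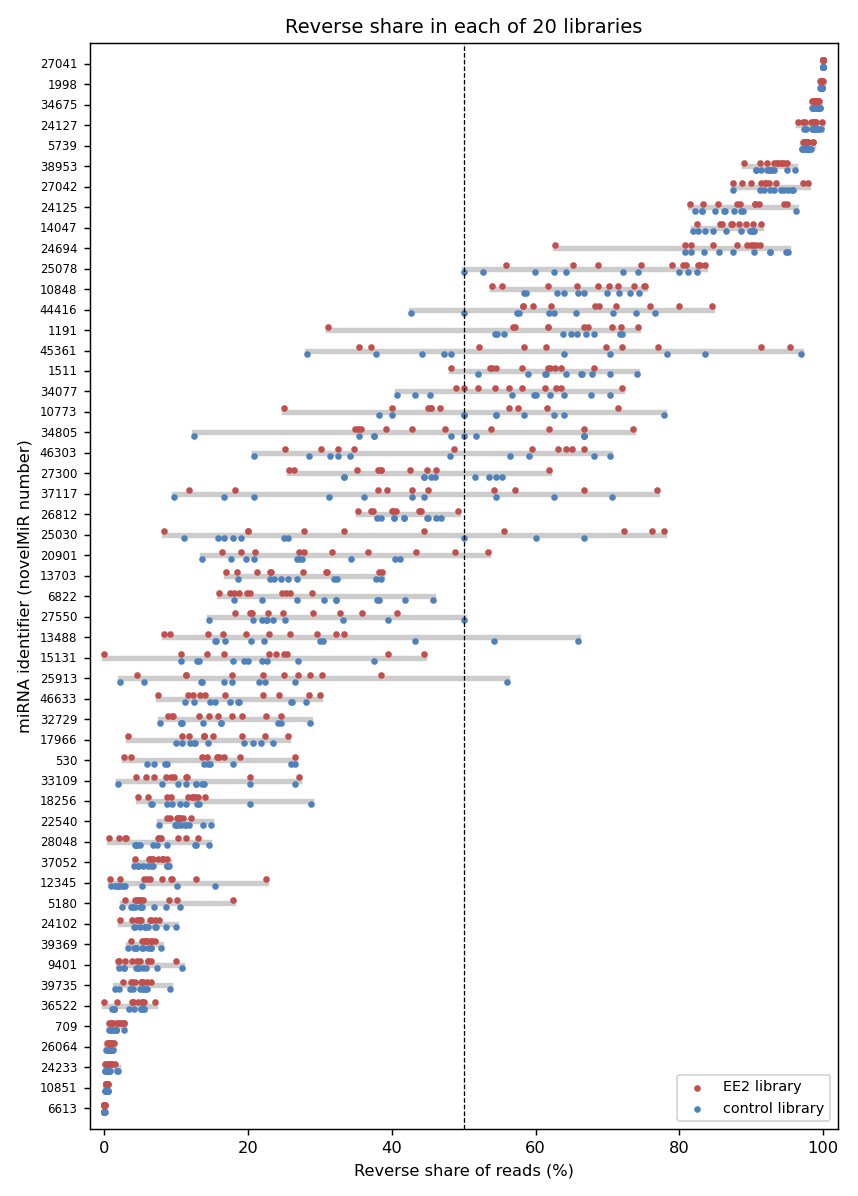
Reverse share (x axis, % of the reads of an identifier) in each library for the 52 identifiers (y axis, ordered by share); red points are EE2 libraries, drawn above the blue points of control libraries, grey bars span the 20 libraries and the dashed line marks 50%. The bars of identifiers near either end are short, novelMiR_45361 spans 28.1% to 96.9%, and the colours overlap in each row.

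The largest excess over counting was in novelMiR_46303. Its share was 25.1% to 66.7% in EE2 libraries (median 54.1%) and 20.9% to 70.3% in control libraries (median 41.1%). The lowest value, in control replicate 10, rested on 87 of 417 reads (20.9%, exact Clopper-Pearson 95% interval 17.1% to 25.1%), and the highest, in control replicate 3, on 501 of 713 (70.3%, interval 66.8% to 73.6%). Low and high libraries occurred in both groups, so its division between strands differed among libraries of the same treatment by more than counting error.

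novelMiR_45361 had a share of 35.4% to 95.3% with EE2 (median 65.6%) and 28.1% to 96.9% in controls (median 56.1%), with a variance 20.2 times that of counting. Its highest value rested on 31 of 32 reads in control replicate 2 (interval 83.8% to 99.9%). novelMiR_25078, with a variance ratio of 19.8, had 55.9% to 83.5% with EE2 (median 79.7%) and from exactly 50% to 82.4% in controls (median 68.2%). In both identifiers the shares differed widely among libraries within each group.

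The shares closest to counting error were those of novelMiR_24102 (variance ratio 1.10), novelMiR_39369 (1.26) and novelMiR_39735 (1.42). novelMiR_24102 had a share of 2.22% to 7.63% with EE2 (median 5.00%) and 4.10% to 9.94% in controls (median 5.88%), from 5 to 15 reverse reads per EE2 library and 8 to 19 per control library. novelMiR_39369 had 3.78% to 7.11% with EE2 (median 5.84%) and 3.28% to 7.86% in controls (median 5.32%). In these identifiers the spread between libraries was close to counting error. Other identifiers with reverse counts as low had more spread. novelMiR_24233, with a mean of 9.3 reverse reads per library, had a variance ratio of 5.47, and novelMiR_12345, with 7.3, had 5.57.

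A nearly fixed share near an end of the scale can still vary much relative to itself. The coefficient of variation was 0.00860% for novelMiR_27041 and 45.4% for its mirror novelMiR_6613, from the same reads. 2 identifiers had a library with 0 reverse reads: novelMiR_36522 in EE2 replicate 9, with 0 of 160 reads, and novelMiR_15131 in EE2 replicate 7, with 0 of 17 reads. Taken as 3 reads of the total, the limit that a count of 0 allows was a share of 1.88% and 17.6%; the exact 95% intervals reached 2.28% and 19.5%. These counts of 0 say that no reverse read was detectable at that depth.

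Forward and reverse levels of one identifier were correlated past the adjusted threshold for 3 identifiers. For the 43 identifiers with a mean of at least 10 reads on each strand, levels were taken as log2 of reads per M forward-table reads after adding 0.5 reads to each count, and correlated over the 20 libraries. In this set novelMiR_6613 and novelMiR_27041, which carry 1 set of values, count as 2. The Pearson r was positive for 28 and negative for 15, with a median of 0.15 and a range of -0.41 to 0.81. It passed a Benjamini-Hochberg adjusted permutation p of 0.05 for these 3 of 43 (6.98%), and 6 had an unadjusted p under 0.05; Spearman's rho passed for 2. Both strands share the library total, which enters both values. Some rows lay near the minimum, such as the forward row of novelMiR_24127 with a mean of 10.65 reads. At such counts counting error lowers an r, so a low r does not show that the strands vary apart. With a minimum mean of 50 reads on each strand, 10 identifiers remained. Among them novelMiR_10848 (adjusted permutation p = 0.0001) and novelMiR_22540 (adjusted permutation p = 0.0112) passed.

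As a description of what rows of different identifiers give, the reverse level of one of these identifiers was set against the forward level of another. Over 1806 such pairs the median r was 0.05, and 75 (4.15%) exceeded 0.5. The matched rows described above are among these pairs. Among own pairs 4 of 43 (9.30%) exceeded 0.5. The pairs share rows and libraries, so the shares are given with no test.

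novelMiR_27300 had 8 to 35 forward reads in EE2 libraries (median 19.5) and 4 to 25 in control libraries (median 19). Its reverse reads were 5 to 26 in EE2 libraries (median 12.5) and 2 to 26 in control libraries (median 16.5). Its strands had a Pearson r of 0.81 (permutation p = 5e-05, adjusted p = 0.00108) and a rho of 0.70 (permutation p = 0.00089, adjusted p = 0.0191). Libraries poor in its forward reads were poor in its reverse reads. Without the 2 libraries farthest from the median forward level the r was 0.59 with an adjusted permutation p of 0.115, so the call rests on those libraries; within EE2 it was 0.57 and within controls 0.95.

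novelMiR_10848 had 20 to 222 forward reads with EE2 (median 73.5) and 25 to 157 in controls (median 100.5). Its reverse reads were 50 to 357 with EE2 (median 148.5) and 58 to 343 in controls (median 171.5). The r was 0.81 (permutation p = 1e-05, the smallest that 100000 permutations can give; adjusted p = 0.00043) and the rho 0.75 (permutation p = 0.00019, adjusted p = 0.00817). It was 0.76 without the 2 farthest libraries, 0.75 within EE2 and 0.83 within controls. Libraries of either group with more of its forward reads also had more of its reverse reads. Forward rows of other identifiers followed its reverse row more closely, the nearest being novelMiR_75 (r = 0.94). By this r its own forward row ranked 30 of the 528.

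novelMiR_22540 had 2877 to 6966 forward reads with EE2 (median 3905.5) and 2289 to 4848 in controls (median 3538.5). Its reverse reads were 276 to 788 with EE2 (median 426) and 291 to 649 in controls (median 434.5). Its r was 0.63 (permutation p = 0.00224, adjusted p = 0.0321), with a rho of 0.62 (permutation p = 0.00351, adjusted p = 0.0503). It was 0.75 without the 2 farthest libraries, 0.83 within EE2 and 0.55 within controls. By r with its reverse row, its own forward row ranked 5 of the 528 forward rows. With the reverse strand taken per M reads of the reverse table the r was 0.49 and the adjusted permutation p 0.293, so that this call depends on the total used; under that total novelMiR_26812 passed in its place (r = 0.73, adjusted permutation p = 0.00444).

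The lowest values were -0.41 for novelMiR_18256 (permutation p = 0.0707, adjusted p = 0.390), -0.35 for novelMiR_25913 (permutation p = 0.123, adjusted p = 0.528) and -0.30 for novelMiR_9401 (permutation p = 0.199, adjusted p = 0.610). Their rho values were -0.22 (permutation p = 0.362, adjusted p = 0.819), -0.37 (permutation p = 0.106, adjusted p = 0.457) and -0.29 (permutation p = 0.214, adjusted p = 0.708). Without the 2 farthest libraries the r was -0.31, -0.21 and -0.38. No identifier passed with opposite movement of its strands.

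**Figure D4:**
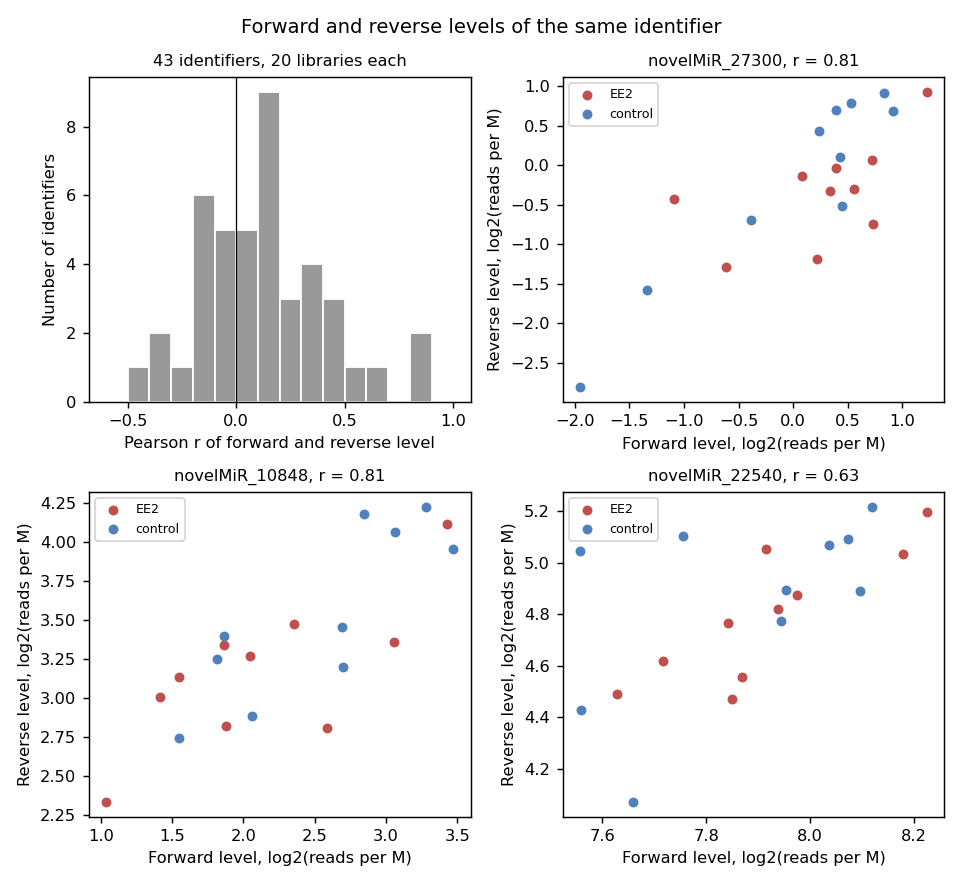
The histogram counts 43 identifiers by the Pearson r of their forward and reverse levels over 20 libraries; the scatter plots show forward (x axis) and reverse (y axis) log2 reads per M for the 3 identifiers that passed, with EE2 libraries in red and control libraries in blue. Most r lie near 0 (median 0.15), and in novelMiR_27300 (r = 0.81) a few libraries with low values on both strands stand apart.

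The series was made to compare EE2 larvae with controls. No forward level among the 52 passed the test of EE2 against control. In edgeR's quasi-likelihood test on the whole forward table, 50 of the 52 were tested (novelMiR_37117 and novelMiR_24127 fell under the filter on low counts), and 0 passed an adjusted p of 0.05, as did 0 of all 478 rows tested (0%). At an unadjusted p under 0.05 there were 0 of the 50, and 24 of the 478 (5.02%); with DESeq2 and limma voom 1 of the 50 had such a p, and 0 passed the adjusted threshold. The estimates were higher with EE2 for 30 (60%) and lower for 20, against 251 higher of all 478 rows (52.5%). Their median log2 fold change was 0.04 against 0.01 over all rows, with a range of -0.60 to 0.48. With library size alone in place of TMM scaling, 23 were higher and 27 lower, and the median of all rows was -0.09. Fold changes of more than 2-fold lay outside the 95% interval for 47 of the 50, and of more than 1.5-fold for 29.

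novelMiR_24233 had the smallest p on the forward strand. It had 999 to 2634 forward reads in EE2 libraries (median 1422) and 619 to 2089 in control libraries (median 1168), so the groups overlapped. Its level was 96.1 ± 14.2 counts per M (CPM) with EE2 and 81.8 ± 15.6 CPM in controls (SD, n = 10 each, as for all CPM here), a log2 fold change of 0.23 ± 0.11 (SE; edgeR quasi-likelihood, p = 0.0528, adjusted p = 0.721).

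The other estimates were smaller or larger, and also missed the threshold. novelMiR_24694 had 2.99 ± 1.91 CPM with EE2 and 2.12 ± 0.682 CPM in controls (log2 fold change 0.48 ± 0.29, SE), and the estimate was 0.21 without EE2 replicate 9. novelMiR_6822 had 3.99 ± 0.758 CPM with EE2 and 3.34 ± 1.19 CPM in controls (0.25 ± 0.19), with an estimate as low as 0.14 when EE2 replicate 9 was left out. These estimates were on the higher side, and neither passed. On the lower side novelMiR_46303 had 11.5 ± 2.18 CPM with EE2 and 13.7 ± 3.50 CPM in controls (-0.25 ± 0.15). novelMiR_37052 had 22.7 ± 2.01 CPM with EE2 and 24.9 ± 2.07 CPM in controls (-0.14 ± 0.08). novelMiR_39369, matched to it on the reverse strand, had 29.0 ± 2.62 CPM with EE2 and 31.3 ± 2.80 CPM in controls (-0.11 ± 0.08). None of these passed the adjusted test. The most abundant, novelMiR_6613, stood at 3675 ± 357 CPM with EE2 and 3619 ± 407 CPM in controls, a log2 fold change of 0.02 ± 0.07 whose 95% interval ran from 0.916-fold to 1.13-fold.

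On the reverse strand 43 of the 52 were tested, and 0 passed, as did 0 of all 47 rows (0%). At an unadjusted p under 0.05 there was 1 of the 43, novelMiR_6822, and 2 of the 47 (4.26%); DESeq2 gave the same number among the 43. The estimates were higher for 23 (53.5%) and lower for 20, against 24 higher of all 47 rows (51.1%). Their median log2 fold change was 0.02 against 0.01 over all rows, with a range of -0.53 to 0.49. With library size alone 15 were higher and 30 lower of 45 tested, and the median of all rows was -0.09. With the reverse table's own totals and TMM factors, 16 were higher and 28 lower of 44 tested. Fold changes of more than 2-fold lay outside the 95% interval for 38 of the 43, and of more than 1.5-fold for 24.

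novelMiR_6822 had 7 to 25 reverse reads in EE2 libraries (median 19) and 10 to 38 in control libraries (median 24.5), which overlap. Its reverse level was 1.10 ± 0.343 CPM with EE2 and 1.62 ± 0.680 CPM in controls, a log2 fold change of -0.53 ± 0.24 (edgeR quasi-likelihood, p = 0.0403, adjusted p = 0.803). Next came novelMiR_10773 (-0.35 ± 0.23) and novelMiR_24127, with 40.8 ± 7.60 CPM with EE2 and 46.3 ± 7.22 CPM in controls (-0.18 ± 0.12). These estimates were lower with EE2, and the following were higher. novelMiR_25078 had 22.2 ± 8.87 CPM with EE2 and 16.02 ± 7.91 CPM in controls (0.47 ± 0.27). novelMiR_25913 had 0.917 ± 0.430 CPM with EE2 and 0.671 ± 0.442 CPM in controls (0.49 ± 0.35). novelMiR_34675 had 343 ± 55.8 CPM with EE2 and 309 ± 57.9 CPM in controls (0.15 ± 0.11, or 0.08 without EE2 replicate 2). None of these passed the adjusted test. Of the 2 other leading reverse rows, novelMiR_1998 had a log2 fold change of 0.11 ± 0.11 and novelMiR_5739 of 0.04 ± 0.11.

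The division between strands was compared within libraries, where depth and scaling cancel. The reverse share was higher with EE2 for 24 of the 46 identifiers and lower for 22, with differences of -11.1 to 7.46 percentage points and a median of 0.00924 points. By a two-sided permutation test of the difference of means, adjusted over all 46 identifiers that met the minimum, 0 passed (0%), and 1 had an unadjusted p under 0.05 (2.17%). The groups overlapped for all 46. The tests of novelMiR_6613 and novelMiR_27041 are the same test.

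The identifier with the smallest p was again novelMiR_6822. Its share was 15.9% to 28.9% in EE2 libraries (median 20.05%) and 18.02% to 45.8% in control libraries (median 32.2%). The 10 EE2 libraries all lay below the control median, and 3 controls (replicates 1, 4 and 7) lay within the EE2 range. The mean was 21.5% ± 4.33 with EE2 and 32.6% ± 8.70 in controls (SD, n = 10 each), a difference of -11.1 ± 3.07 points (SE; permutation p = 0.00236, adjusted p = 0.109). A fit of strand by treatment in edgeR gave an adjusted p of 0.193.

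With all 20 libraries novelMiR_6822 did not pass. Among the alternatives it passed only when control replicate 4 or control replicate 7 was left out. Without control replicate 4 the difference was -12.7 points (exact permutation p = 0.000325, adjusted p = 0.0149), and without control replicate 7 it was -12.3 points (exact permutation p = 0.00106, adjusted p = 0.0488). Over 24 alternatives the adjusted p was 0.0149 to 0.539. The share rested on 33 to 95 forward reads per EE2 library (median 66) and 21 to 91 per control library (median 43.5), beside the reverse reads above. The forward estimate was higher and the reverse estimate lower with EE2, and neither passed its own test.

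For the other identifiers with small p the groups lay closer. novelMiR_1511 had a share of 58.6% ± 6.00 with EE2 and 64.3% ± 6.23 in controls (difference -5.63 ± 2.74 points, permutation p = 0.0545, adjusted p = 0.938). novelMiR_13488 had 21.2% ± 9.10 with EE2 and 31.4% ± 17.5 in controls (-10.2 ± 6.25 points, or -6.36 points without control replicate 10). In both, the groups overlapped. On the higher side novelMiR_25078 had 75.4% ± 9.29 with EE2 and 67.9% ± 11.8 in controls (7.46 ± 4.74 points). novelMiR_12345 had 8.27% ± 6.08 with EE2 and 4.44% ± 4.72 in controls (3.83 ± 2.43 points, or 2.26 points without EE2 replicate 5). novelMiR_44416 had 68.7% ± 9.31 with EE2 and 61.9% ± 10.6 in controls (6.81 ± 4.45 points). Each of these 5 had an adjusted permutation p of 0.938.

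**Figure D5:**
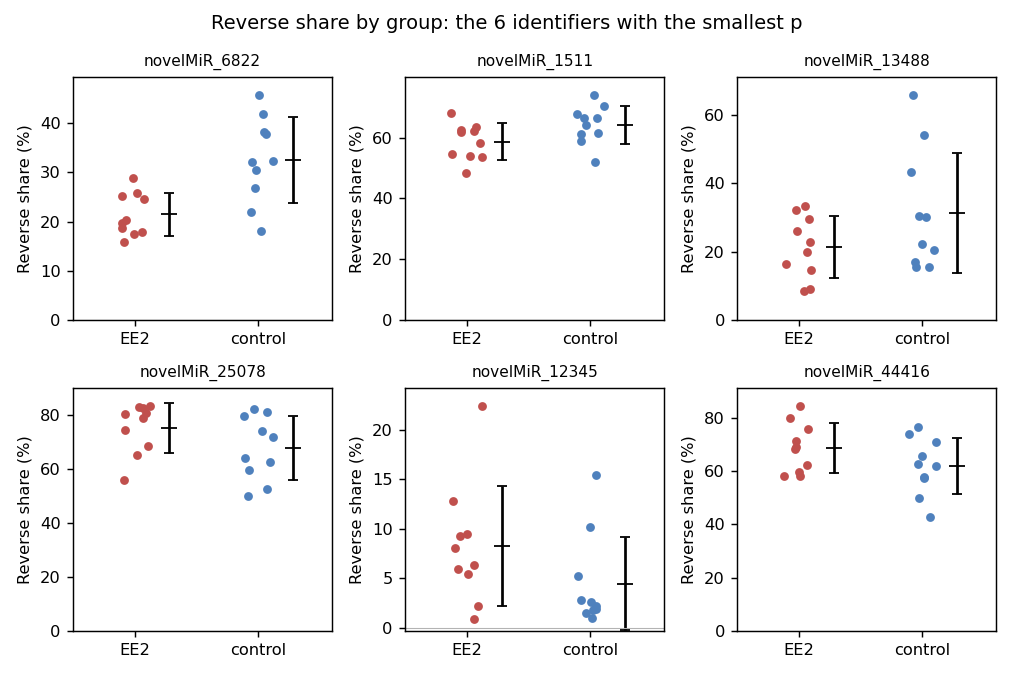
Reverse share (y axis, %) of the 6 identifiers with the 3 smallest p in each direction, in 10 EE2 libraries (left, red) and 10 control libraries (right, blue), with the mean and SD as black marks. In novelMiR_6822 the EE2 libraries lie at 15.9% to 28.9% and the controls at 18.02% to 45.8%, and in all 6 the groups overlap.

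The shares of the 4 identifiers with most reverse reads, all near 100%, were close in the groups. novelMiR_27041 averaged 99.98% with EE2 and 99.98% in controls. novelMiR_1998 averaged 99.73% ± 0.0956 with EE2 and 99.74% ± 0.0738 in controls, a difference of -0.0105 ± 0.0382 points (SE). novelMiR_34675 averaged 98.96% ± 0.293 with EE2 and 98.98% ± 0.390 in controls, a difference of -0.0187 ± 0.154 points. These differences were smaller than their standard errors. Taken over all reads of the 52 identifiers, the reverse share per library was 46.4% to 50.3% with EE2 (mean 48.2% ± 1.28, SD, n = 10) and 46.7% to 49.9% in controls (mean 48.3% ± 0.882, n = 10). Most of the summed reads belong to the matched pair of novelMiR_6613 and novelMiR_27041, whose counts are equal across the strands, and the sum was not tested.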

How the data were processed

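Total RNA of whole larvae was made into TruSeq small RNA libraries, per the labels' protocols. The deposited miRNA tables hold raw read counts per identifier, which the authors left unnormalized, as the differing totals of the whole numbers show. Per the labels, reads were mapped to known fathead minnow miRNA sequences. Tools named in the submitters' processing notes are edgeR 3.26.8, limma 3.40.6, Bowtie 1.2.3 and bcl2fastq 2.19.1. Not given in the sources used here are the number of mismatches, how reads matching more than 1 sequence or strand were counted, and the minimum for a row; each could move reads between the strands of an identifier or between identifiers. The piRNA tables were not used.

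Identifiers and lists were chosen with earlier results of these data known. Each table was fitted whole in edgeR 4.0.16 (R 4.3.3): filterByExpr with a minimum count of 10, TMM factors, robust quasi-likelihood test, Benjamini-Hochberg adjustment, threshold 0.05. The forward table's library sizes and TMM factors also scaled the reverse table. CPM are TMM-normalised, and SE come from the F statistic. Shares (mean of 50 or more reads) and correlations (mean of 10 or more reads per strand, pseudocount 0.5 reads) were tested by two-sided permutation in numpy 2.4.6. These tests used 100000 permutations, and exact permutation where a library was left out. Ranks and exact intervals came from scipy 1.17.1. The binomial counting variance was compared with the observed one. DESeq2 1.42.0 and limma 3.58.1 (voom) were alternatives, as were other scalings, minimums, pseudocounts, a replicate block and leaving out each library. The scripts were tested on simulated data.

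Named identifiers were the 10 with most reverse reads, the 5 highest and 5 lowest shares, the 3 smallest p per direction and test, the 3 highest and 3 lowest r, the 3 largest and 3 smallest variance ratios, nearest forward rows, and rows of equal or proportional counts. Identifiers named outside this rule (novelMiR_26812, novelMiR_36522, novelMiR_15131, novelMiR_37117, novelMiR_27550) were chosen after their values were seen.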

Additional observations from a re-analysis of the deposited data

Results flagged for a closer look

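In 3 of 62 groups of 10 shares, 1 library lay far from the other 9 by Dixon's limit of 0.466 of the range; chance alone gives about 1 in 20, or 3.1 of 62. The groups were the EE2 and control shares of the identifiers named under the rule above that were in the share test. novelMiR_24694 had a reverse share of 62.7% in EE2 replicate 9 (156 of 249 reads, exact 95% interval 56.3% to 68.7%), where the next lowest EE2 library had 80.8%. novelMiR_709 had 2.72% in control replicate 10 (33 of 1214 reads, interval 1.88% to 3.80%), where the next highest control had 1.64%. novelMiR_25913 had 56.0% in control replicate 8 (14 of 25 reads, interval 34.9% to 75.6%), where the next highest control had 26.5%.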

How the results depend on the processing

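Among the counts of calls and the estimates of named identifiers with the smallest p or the most extreme r, no direction reversed under the alternatives run. The balance of all estimates did turn under several alternatives. With library size alone it was 23 higher and 27 lower (forward) and 15 higher and 30 lower (reverse). Scaled by the reverse table's own totals and TMM factors, 16 reverse estimates were higher and 28 lower. Leaving out some single libraries turned it too, and leaving out others did not. Without EE2 replicate 1 it was 25 higher and 26 lower (forward) and 19 higher and 25 lower (reverse). The count of identifiers past the adjusted threshold was 0 for forward and reverse levels under each alternative, leaving out each library included (range 0 to 0). For the share it was 0 to 1 when libraries were left out, the 1 being novelMiR_6822 without control replicate 4 or control replicate 7, and 0 otherwise. With a minimum of 200 reads, which leaves out novelMiR_6822, 21 of 26 shares varied more than 2 times counting, against 37 of 46; in EE2 libraries alone it was 39 and in controls alone 36. Correlations past the threshold were 0 within EE2 and 1 within controls, against 3 over all libraries; with 10 libraries a given r has a larger p. Identifiers at an unadjusted p under 0.05 numbered 0 to 3 over the alternatives for each of the 3 comparisons. Replicate numbers are not said to pair libraries, and same-numbered libraries did not deviate together (r of -0.42 to 0.28, over 0.1 in 2 of 10 pairs). Of 20 libraries, 1 was closest to its own number. With a replicate block the counts were 0 for forward, reverse and share. For the share, 10 pairs give too coarse a permutation p for a lone identifier to pass among 46, so that 0 decides nothing. For most shares the spread between libraries exceeded counting error, and what set the smallest detectable change of share was not tested.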
